A study of Mus musculus with 24 samples.

Results

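The first hour of endoplasmic reticulum (ER) stress was followed in the mouse insulinoma line MIN6, which makes and releases insulin, in the libraries labelled as overexpressing EIF2A-GFP, the translation initiation factor EIF2A fused to green fluorescent protein. Libraries were chosen by their labels alone, as 4 libraries of cells given 1 µM thapsigargin for 1 h and 4 libraries of cells labelled 0 h. The treatment protocol names DMSO vehicle for 0 h, while the treatment field of those libraries reads "none". These are 8 of the 24 libraries of the series, which also holds EIF2A-GFP cells at 3 h and cells overexpressing GFP alone at 0, 1 and 3 h, again 4 libraries each. All cells were grown in medium with 22.2 mM glucose and 10% fetal bovine serum, and polyadenylated RNA was sequenced. The labels do not say how the constructs were introduced, whether the cells are 1 clone, or whether replicates are separate cultures. No vehicle group is labelled 1 h, so effects of thapsigargin cannot be told apart from those of time and handling.

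Thapsigargin blocks SERCA, the pump that fills the ER with calcium, so calcium leaks into the cytosol while protein folding in the ER fails. Cytosolic calcium activates kinases and phosphatases that switch on immediate early genes through factors such as CREB, SRF and NFAT. Unfolded protein activates the sensors PERK, IRE1 and ATF6. PERK phosphorylates eIF2α, which slows translation and raises the translation of ATF4, the transcription factor at the head of the integrated stress response (ISR). IRE1 splices the mRNA of Xbp1, and ATF6 is cut to an active factor that drives ER chaperone genes. EIF2A, although its name is close to that of eIF2α, is a separate protein that can deliver initiator tRNA to the ribosome. Beta cells lean on this network because they make and fold large amounts of proinsulin.

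Total counts were 14057183 to 22069519 in the EIF2A 1 h libraries and 10522758 to 18059503 in the EIF2A 0 h libraries. Reads outside any gene were 11.6 to 15.4% of the total at 1 h and 12 to 17.9% at 0 h, and were lower at 1 h in every pair. Replicate 1 had 11.6% at 1 h and 12% at 0 h, and replicates 2 to 4 had 14.8 to 15.4% and 17.2 to 17.9%. GFP replicates 2 to 4 had 10.9 to 11.4% at 1 h and 12.4 to 13% at 0 h. The part of this share in the results was not tested. Beta cell markers were abundant in all 8 libraries, with a summed level of 86500 to 124000 at 1 h and 96400 to 117000 at 0 h over 13 genes, in CPM, which are counts scaled to 1 common library total. Delta, PP and epsilon, acinar and endothelial markers each summed to 2.49 CPM or less, with Cpb1, Prss2, Ptf1a and Kdr at 0 in all 8 libraries. The alpha cell sum of 1300 to 2420 CPM at 1 h and 1390 to 2490 CPM at 0 h was carried by Ttr and Gcg. Duct markers summed to 482 to 652 CPM at 1 h and 346 to 420 CPM at 0 h, nearly all of it Krt7. Macrophage markers summed to 26.1 to 80.9 CPM at 1 h and 27.5 to 90.9 CPM at 0 h, mostly C1qa. In bulk RNA, fewer cells of a type and less RNA per cell cannot be told apart, and the part of these markers in the results was not tested. Mesenchymal markers summed to 2.72 to 3.04 CPM at 1 h and 2.67 to 21.5 CPM at 0 h. A further set of smooth muscle genes stood in 1 library: EIF2A 0 h replicate 2 held 142 counts of Acta2, 155 of Myh11 and 111 of Tagln, against at most 13 counts of each in the other 7 libraries. The lowest fitted value of all genes, Acta2 at -6.65, rests on that library, as do the values of Vim and Tagln at -2.49 and -2.54.

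Eif2a, the overexpressed gene, was examined as a check of the labels, and 1 replicate went against them. Eif2a had 96.9, 201, 189 and 178 CPM in EIF2A 1 h replicates 1 to 4 and 80.3, 141, 142 and 134 CPM in EIF2A 0 h replicates 1 to 4. GFP libraries had 361, 91.9, 90.2 and 94.3 CPM at 1 h and 269, 79.0, 77.8 and 78.7 CPM at 0 h. In replicates 2 to 4 the EIF2A libraries were thus the higher ones, and in replicate 1 the GFP libraries were. On the first principal component of all 24 libraries, 53% of the variance, the pair labelled EIF2A replicate 1 lay at 32.0 (1 h) and 28.8 (0 h), beside GFP replicates 2 to 4 and away from EIF2A replicates 2 to 4 at -40.7 to -34.9 (1 h) and -37.2 to -31.9 (0 h). The pair labelled GFP replicate 1 lay at -19.7 (1 h) and -21.2 (0 h), on the side of EIF2A replicates 2 to 4. Every comparison was therefore made between libraries of the same replicate number, and each gene was also tested in replicates 2 to 4 alone. Eif2a itself rose by 0.40 ± 0.05 on the log2 scale at 1 h over 0 h within these pairs (SE, adjusted p = 5.41e-07). Eif2a is at chr3:58525821-58557501 on the plus strand of GRCm38, and whether reads of the plasmid map there in full was not tested.

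After 1 h of thapsigargin, 3019 of 13761 genes were higher (21.9%) and 3213 were lower (23.3%) in the EIF2A cells, at an adjusted p under 0.05. Without the block on replicate number the counts were 902 higher and 542 lower. "Rose" and "fell" are used for such genes throughout, and values are log2 fold changes of 1 h over 0 h ± standard error unless another measure is named. Most changes were small: 454 genes rose by 1.5-fold or more (3.30%) and 145 fell by as much (1.05%), and at 2-fold the counts were 77 (0.560%) and 30 (0.218%). Of the calls, 2902 higher (21.1%) and 3087 lower (22.4%) genes were also called in replicates 2 to 4 alone. The 4 libraries of each group did not overlap in 1776 genes (12.9%). Since 45.3% of all genes were called, a count of called members is read against these shares.

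Among genes with at least 5 CPM on average, the largest rises included several immediate early genes, which respond to signals within minutes. Nr4a1, an orphan nuclear receptor induced by calcium and cAMP, had 602, 180, 179 and 197 CPM at 1 h and 138, 26.5, 21.2 and 21.8 CPM at 0 h, in replicates 1 to 4. All 1 h libraries lay above all 0 h libraries, and replicate 1 was several times above the other replicates at both times. Its log2 fold change was 2.92 ± 0.46 (adjusted p = 2.14e-04). Next came Fosb at 2.03 ± 0.34, the linker histone gene Hist1h1b at 1.91 ± 0.23, Rassf10, a Ras-association domain gene, at 1.84 ± 0.23, and the nuclear receptor Nr4a3 at 1.62 ± 0.48. The 12 highest also held Hist1h1d (1.54), the snoRNA host gene Snhg12 (1.53), the salt-inducible kinase Sik1 (1.52), Atf3 (1.47), Hist3h2a (1.47), Gem (1.47) and the actin-binding Dbn1 (1.41). Falls were smaller. Egln3, an oxygen-dependent prolyl hydroxylase, had 6.70, 2.52, 2.28 and 2.53 CPM at 1 h and 8.89, 7.68, 8.31 and 6.91 CPM at 0 h, a log2 fold change of -1.14 ± 0.30 (adjusted p = 0.00609). The groups did not overlap, and the drop was smallest in replicate 1. Ak4, a mitochondrial adenylate kinase, fell by 1.04, the transporter Slc16a9 by 0.87, Eif5a2 by 0.83 and the Hippo kinase Lats2 by 0.81. Ankrd37, Rragd, Rmnd5a, the lactate transporter Slc16a3, Igfbp5 and Ypel1 fell by 0.72 to 0.80.

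**Figure D1:**
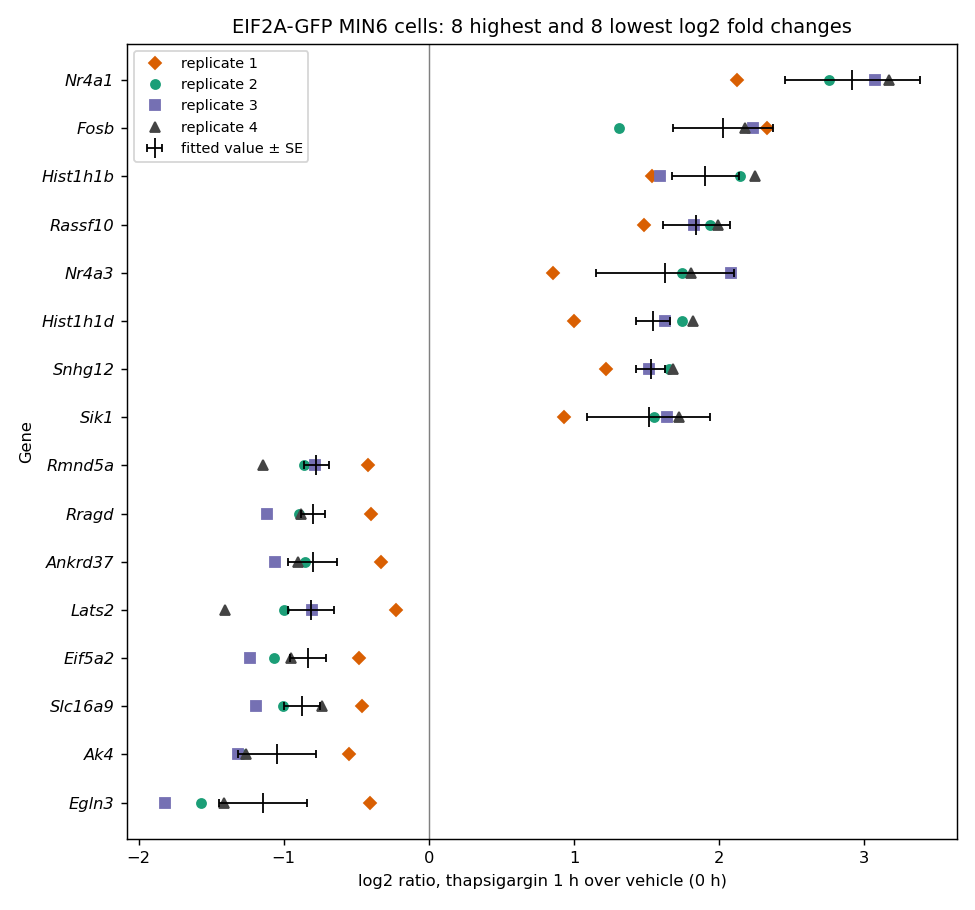
Log2 ratio of 1 h over 0 h (x axis) in each of the 4 EIF2A pairs for the 8 highest and 8 lowest genes (y axis); symbols are replicates, and black ticks with bars are the fitted value ± SE. Replicate 1 lies closest to 0 for most genes, and all 4 pairs of a gene share a side of 0, which the rule for choosing these genes required.

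Genes induced by calcium and CREB, the transcription factor that calcium- and cAMP-dependent kinases phosphorylate, were well represented among these genes. Of 21 tested, 11 rose and 1 fell; their median was 0.46 against -0.02 over all genes tested. Gem, a small GTPase that restrains calcium channels, had 77.0, 39.5, 39.0 and 34.1 CPM at 1 h and 32.2, 13.5, 12.3 and 12.3 CPM at 0 h (1.47 ± 0.12, adjusted p = 1.97e-08). Here too the groups did not overlap. Sik1, a kinase that feeds back on CREB coactivators, had 81.1, 31.2, 31.2 and 28.5 CPM at 1 h and 42.5, 10.6, 9.93 and 8.56 CPM at 0 h (1.52 ± 0.42, adjusted p = 0.0107). Its groups overlapped only through replicate 1, whose 0 h library was above the 1 h libraries of replicates 2 to 4. Nr4a2 rose by 1.39 and the clock gene Per1 by 1.31. Irs2, an adaptor of the insulin receptor, rose by 0.82, and Rcan1, an inhibitor of calcineurin, by 0.46. Its relative Rcan2 fell by 0.37. Crem, Ppargc1a and Bdnf, known CREB targets, were at 0.47, 0.40 and 0.14 and were not called.

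The promoter of Nr4a1, 250 bases before to 50 after its RefSeq start on chromosome 15 (GRCm38.p6, chr15:101266596-101266895, plus strand), is shown because this gene led the response. Capitals mark 4 matches to TGACG, the core of a cAMP response element (CRE), all on the opposite strand.
Nr4a1: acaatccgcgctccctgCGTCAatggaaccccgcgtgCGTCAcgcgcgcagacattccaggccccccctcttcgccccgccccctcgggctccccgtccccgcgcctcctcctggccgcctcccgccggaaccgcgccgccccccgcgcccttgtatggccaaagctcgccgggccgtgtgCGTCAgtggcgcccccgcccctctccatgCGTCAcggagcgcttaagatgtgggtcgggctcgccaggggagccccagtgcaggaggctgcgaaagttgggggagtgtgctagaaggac
The half-site was chosen after promoters were seen and is common: 3698 of 10446 promoters of tested genes held it on either strand (35.4%), as did 31 of 46 promoters from the AP-1, immediate early and calcium lists (67.4%). The whole element TGACGTCA, which contains the half-site, was in 393 of 10446 promoters (3.76%). Of those 393 genes, 131 rose (33.3%) and 79 fell (20.1%), while over all 10446 genes 22.6% rose and 23.6% fell. In the early lists 5 of 46 held it: Maff (0.33), Scg2 (0.27) and Rcan1 (0.46), which rose, and Plk2 (0.14) and Areg (0.28), which were not called. Of all 46 genes 27 rose (58.7%) and 1 fell. A match is a run of letters and not a measured site.

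Some AP-1 genes rose, while Fos and Egr1 were not called over 4 pairs. Of 9 AP-1 genes tested, 4 rose: Fosb, Jun (1.41 ± 0.06, adjusted p = 4.73e-16), Fosl2 (1.19) and Junb (0.96 ± 0.08). Jun, the most precisely measured of these, had 164, 370, 377 and 408 CPM at 1 h and 69.8, 139, 146 and 132 CPM at 0 h, with no overlap. Fos did not follow. It had 95.2, 16.8, 14.3 and 15.3 CPM at 1 h and 25.5, 20.1, 14.9 and 13.5 CPM at 0 h, so that only replicate 1 was clearly higher at 1 h. Its log2 fold change was 0.62 ± 0.36 (adjusted p = 0.189) over 4 pairs and -0.08 ± 0.11 (adjusted p = 0.575) in replicates 2 to 4. Egr1, a zinc finger factor induced along with Fos in many cells, had 197, 36.1, 36.3 and 31.8 CPM at 1 h and 64.8, 50.6, 51.7 and 38.1 CPM at 0 h. It was higher at 1 h in replicate 1 and lower in each of the other pairs. Over 4 pairs it was at 0.15 ± 0.31 (adjusted p = 0.731), and in replicates 2 to 4 it fell by 0.43 ± 0.06 (adjusted p = 7.92e-07).

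Among the other immediate early genes, 20 of 30 rose, with a median of 0.50, and 17 of the 20 were also called in replicates 2 to 4. Ier2 had 132, 119, 119 and 134 CPM at 1 h and 51.1, 47.1, 51.3 and 50.1 CPM at 0 h (1.34 ± 0.09, adjusted p = 3.11e-10). Nfil3, a repressor that acts in the clock and in stress, rose by 1.35 ± 0.07, Csrnp1 by 1.28, Arc by 0.96 and Gadd45g by 0.95. Myc rose by 0.51 and Rgs2, which shortens G protein signals, by 0.54. Egr2 and Egr3 had high fitted values, 1.91 and 2.28, at under 1 CPM in every library except replicate 1 at 1 h, and neither was called without replicate 1. 

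Feedback inhibitors of MAP kinase signalling rose as well: 11 of 16 were higher and 2 lower, and the median was 0.43. Dusp10, a phosphatase of JNK and p38, had 103, 106, 107 and 108 CPM at 1 h and 65.8, 63.3, 57.1 and 59.2 CPM at 0 h (0.79 ± 0.08, adjusted p = 5.12e-08). Its 1 h libraries were all above its 0 h libraries, and replicate 1 was close to the rest. Dusp5 and Dusp6, which act on ERK, rose by 0.93 and 0.92, Dusp4 by 0.79 and the receptor kinase inhibitor Spry4 by 0.91. Dusp6 and Spry4 were much higher in replicate 1, with Dusp6 at 61.8 CPM at 1 h and 31.8 CPM at 0 h, against 7.80 to 8.31 CPM at 1 h and 3.61 to 5.06 CPM at 0 h in the other replicates. Of 14 mRNA decay and antiproliferative genes, 4 rose (28.6%) and 2 fell (14.3%), with a median of 0.05. Over all genes 21.9% rose and 23.3% fell, so the share that rose was near that of all genes. Zfp36, which destabilises AU-rich mRNAs, rose by 0.74 and Btg2 by 0.61. KLF factors rose in 4 of 12 cases (33.3%), led by Klf10 at 0.91. NF-kB genes rose in 5 of 14 (35.7%), with Relb at 0.70, Rel at 0.68 and Nfkb2 at 0.47. In the AP-1, immediate early, KLF and NF-kB lists edgeR called 0 genes lower, with 0 lower at an unadjusted p under 0.05 and 0 by DESeq2.

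**Figure D2:**
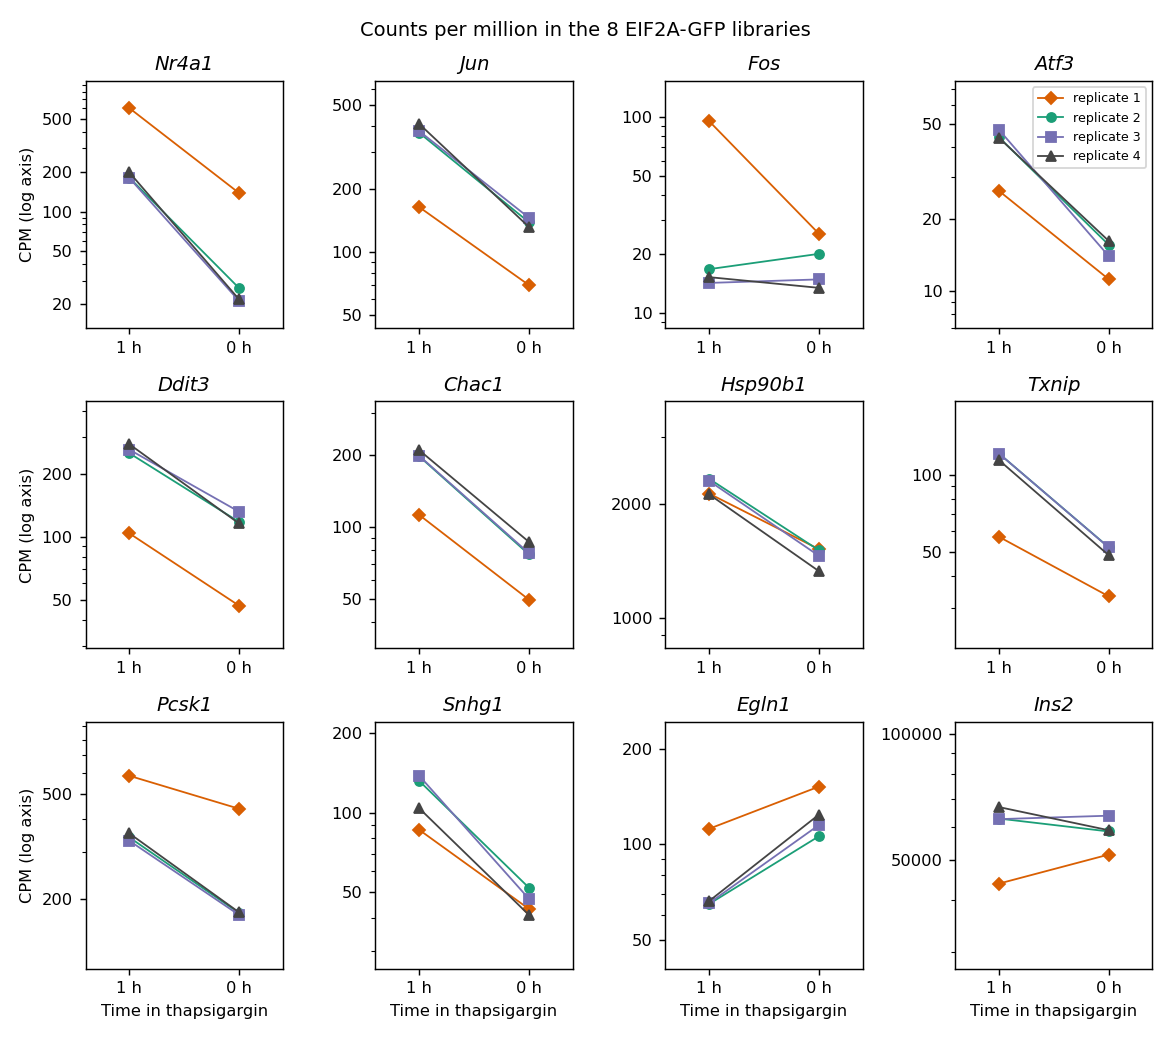
CPM (y axis, log scale, own range in each panel) of 12 genes in the 8 EIF2A libraries, with 1 h left and 0 h right and lines joining libraries of a replicate. Fos is clearly higher at 1 h only in replicate 1, while Jun, Atf3, Chac1 and Txnip are higher at 1 h in all 4 pairs and Egln1 is lower in all 4.

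ISR genes were already changed at 1 h, mostly upward. Among 10 transcription factors of the response 4 rose and 2 fell, and among 23 effectors 11 rose and 2 fell; the median was 0.30 in each list. Atf4 mRNA had 823, 894, 885 and 840 CPM at 1 h and 538, 652, 646 and 611 CPM at 0 h (0.49 ± 0.11, adjusted p = 0.00132). Ddit3, which encodes the pro-death factor CHOP, had 104, 251, 261 and 277 CPM at 1 h and 47.0, 118, 132 and 116 CPM at 0 h (1.11 ± 0.18, adjusted p = 2.79e-04). Within each pair 1 h was higher, although replicate 1 was lower than the rest at both times. Atf3, a repressor of the same response, rose by 1.47 ± 0.20 (adjusted p = 5.06e-05). Atf5, a factor under the same translational control as Atf4, fell by 0.51 ± 0.09 at the mRNA level (adjusted p = 2.27e-04). Of the effectors, Chac1, which breaks down glutathione, had 112, 197, 198 and 209 CPM at 1 h and 49.5, 76.6, 77.5 and 86.4 CPM at 0 h (1.30 ± 0.19, adjusted p = 1.29e-04). Trib3, a pseudokinase that restrains ATF4, rose by 0.81, Ppp1r15a, the phosphatase subunit that reverses eIF2α phosphorylation, by 0.72 ± 0.07 and Trib1 by 0.68 ± 0.08. Bbc3, which encodes PUMA, rose by 0.52. Map1lc3b, an autophagosome protein, fell by 0.47.

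Amino acid genes moved less at this time. Of 22 synthesis and transport genes 8 rose and 1 fell (median 0.10). Slc3a2, the heavy chain of several amino acid exchangers, was the exception in size, with 294, 285, 281 and 295 CPM at 1 h and 204, 128, 129 and 129 CPM at 0 h (0.99 ± 0.07, adjusted p = 1.57e-10). Asns, a classical ATF4 target, rose by 0.22, and Psat1 of serine synthesis fell by 0.24. The cytosolic tRNA synthetases mostly rose, by small amounts. Of 20 tested, 17 rose by edgeR and 0 fell, also at an unadjusted p under 0.05 and by DESeq2, with a median of 0.35, values up to 0.60 and 14 without overlap between the groups. Vars had 241, 281, 288 and 353 CPM at 1 h and 198, 178, 185 and 197 CPM at 0 h (0.60 ± 0.06, adjusted p = 3.63e-08). Dars and Rars rose by 0.49 each and Aars by 0.42, and Iars, Hars and Wars were not called, at 0.18, 0.10 and -0.04. In the eIF2 and eIF2B machinery 8 of 18 genes rose and 1 fell. Eif2b4 and Eif2b3, subunits of the guanine nucleotide exchange factor of eIF2, rose by 0.67 ± 0.08 and 0.53 ± 0.07, and Eif2ak2, the gene of the kinase PKR, fell by 0.46.

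The promoter of Chac1 (GRCm38.p6, chr2:119350992-119351291, plus strand) is shown for the composite C/EBP-ATF letters TGATGNAA that ATF4 with a C/EBP partner is known to read. Capitals mark the 1 match, on the opposite strand.
Chac1: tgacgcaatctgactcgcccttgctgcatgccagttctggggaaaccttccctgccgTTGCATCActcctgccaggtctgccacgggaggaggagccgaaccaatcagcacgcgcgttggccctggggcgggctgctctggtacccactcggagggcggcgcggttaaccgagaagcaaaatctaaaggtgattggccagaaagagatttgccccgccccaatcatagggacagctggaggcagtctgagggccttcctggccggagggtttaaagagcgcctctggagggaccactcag
This run was in 12 of 45 promoters of the ISR and amino acid lists (26.7%) and in 280 of 10446 promoters of tested genes (2.68%). Of the 12 genes, 5 had risen at 1 h (Atf3, Chac1, Trib3, Herpud1 and Asns), 0 had fallen, and 7 were not called, with Slc7a11 at 0.28, Pycr1 at 0.05, Slc1a4 at 0.01 and Fgf21 at -0.09 among them. That is 41.7% risen, while of all 45 genes of these lists 22 rose (48.9%) and 4 fell (8.89%). Over all 280 genes with the letters, 23.2% rose and 20.4% fell, near the shares for all promoters.

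ER folding genes rose modestly and not as a block. Of 27 chaperone and folding genes, 13 rose and 3 fell (median 0.15). Hsp90b1, the ER form of HSP90, had 2130, 2330, 2300 and 2120 CPM at 1 h and 1520, 1510, 1460 and 1330 CPM at 0 h (0.61 ± 0.06, adjusted p = 2.13e-09). The libraries of each time were close together here, replicate 1 included. The disulfide isomerases Pdia5, Pdia4, Pdia6 and Pdia3 rose by 0.66, 0.57, 0.55 and 0.52. Hspa5, the chaperone BiP, rose by 0.30 ± 0.07 (adjusted p = 5.71e-04), with 1740, 1390, 1360 and 1320 CPM at 1 h and 1490, 1140, 1120 and 1010 CPM at 0 h. Calr, Canx, Hyou1 and Dnajb9 stood at 0.13, 0.10, 0.13 and 0.06 and were not called. Among 11 genes of the stress sensors and their processing, 5 rose and 3 fell: Ern1, which encodes IRE1, rose by 0.42 and Xbp1 by 0.29 ± 0.06, while the proteases that cut ATF6, Mbtps1 and Mbtps2, fell by 0.22 and 0.41. Counts per gene do not show Xbp1 splicing. Of 4 tested IRE1 decay substrates 0 were called by edgeR, 0 had an unadjusted p under 0.05 and 0 were called by DESeq2, with Tapbp at -0.11 ± 0.06 (adjusted p = 0.136) and Bloc1s1 at -0.13.

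A pair of promoters carries the letters that ATF6 and XBP1 are known for. The Hspa5 promoter (GRCm38.p6, chr2:34771840-34772139, plus strand) holds 1 exact match to the ER stress response element (ERSE), CCAAT and CCACG 9 bases apart, in capitals. The Herpud1 promoter (GRCm38.p6, chr8:94386179-94386478, plus strand) holds 1 match to the variant ERSE-II, ATTGG and CCACG 1 base apart, also in capitals.
Hspa5: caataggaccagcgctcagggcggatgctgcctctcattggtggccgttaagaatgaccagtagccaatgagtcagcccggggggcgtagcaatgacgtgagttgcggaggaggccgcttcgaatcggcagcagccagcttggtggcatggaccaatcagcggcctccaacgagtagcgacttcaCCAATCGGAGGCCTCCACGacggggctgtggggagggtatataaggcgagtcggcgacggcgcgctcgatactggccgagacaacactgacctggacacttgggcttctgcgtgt
Herpud1: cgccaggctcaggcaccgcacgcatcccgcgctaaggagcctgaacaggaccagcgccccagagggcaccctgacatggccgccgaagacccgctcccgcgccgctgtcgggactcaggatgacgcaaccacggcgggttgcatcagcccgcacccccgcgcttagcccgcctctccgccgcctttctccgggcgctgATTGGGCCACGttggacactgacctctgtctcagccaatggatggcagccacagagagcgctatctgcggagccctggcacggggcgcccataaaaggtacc
ERSE was in 17 of 10446 promoters (0.163%), and 9 of these belong to the 39 chaperone and ERAD genes with a promoter (23.1%). Of the 9, Hsp90b1, Pdia6 (0.55), Creld2 (0.43) and Hspa5 rose, Derl3 fell by 0.38, and Calr, Canx, Syvn1 and Dnajc3 were not called. Of all 39 genes 15 rose (38.5%) and 9 fell (23.1%). ERSE-II, chosen after promoters were seen, was in 8 promoters (0.0766%).

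Herpud1, a scaffold of ER-associated degradation (ERAD), had 189, 211, 216 and 205 CPM at 1 h and 118, 126, 135 and 126 CPM at 0 h (0.70 ± 0.16, adjusted p = 0.00279), with no overlap. The other ERAD genes split, 7 of 25 higher and 9 lower in all. The lectins Erlec1 and Os9 rose by 0.56 and 0.47, and the ubiquitin ligase Rnf5, the mannosidase-like Edem3 and the adaptor Sel1l fell by 0.45, 0.45 and 0.35. Entry into the ER split in the same way. Of 33 genes for translocation, signal cleavage and N-glycosylation 11 rose and 16 fell, with the oligosaccharyltransferase subunits Rpn2, Ddost and Rpn1 up by 0.52, 0.48 and 0.40. The signal peptidase subunit Spcs3 fell by 0.47 and the channel subunit Sec61b by 0.39. Srp54a was at 1.22, but it has close copies in the mouse genome between which reads may be split. Among COPII and COPI genes 10 of 28 rose (35.7%), with Golga2 at 0.51 and Copb2 at 0.48, and 8 fell (28.6%), with Copz1 at -0.32. The shares over all genes were 21.9% and 23.3%. Of 17 ER calcium genes 2 rose and 7 fell, and the median was -0.13. The SERCA genes Atp2a3 and Atp2a2, which encode targets of thapsigargin, fell by 0.33 and 0.17, the release channel Itpr1 by 0.40 and the entry channel Orai2 by 0.31.

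Insulin mRNA showed no called change over the 4 pairs. Ins2 had 43800, 62700, 62500 and 66800 CPM at 1 h and 51400, 58400, 63700 and 58800 CPM at 0 h (0.01 ± 0.08, adjusted p = 0.924). Of the 4 pairs, 2 were higher and 2 lower at 1 h. Ins1 was at 0.11 ± 0.08 (adjusted p = 0.263), and in replicates 2 to 4 it rose by 0.21 (adjusted p = 2.09e-04); these paralogs are alike enough that reads may pass between them. Iapp, the amylin gene, was at -0.10 and not called. Of 33 hormone, granule and secretion genes 8 rose (24.2%) and 9 fell (27.3%), near the shares over all genes. Pcsk1, the first convertase to cut proinsulin, had 585, 342, 332 and 354 CPM at 1 h and 439, 177, 174 and 178 CPM at 0 h (0.82 ± 0.07, adjusted p = 5.08e-10), and overlap came from replicate 1 at 0 h alone. Chgb rose by 0.71, Pcsk2 by 0.65 and Scg3 by 0.52, all granule proteins. The exocytosis genes Syt7, Vamp2, Rab3a and Rab27a fell by 0.27 to 0.46.

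The promoter of Pcsk1 (GRCm38.p6, chr13:75089607-75089906, plus strand) is shown because it holds the whole CRE TGACGTCA, in capitals, as Chgb's promoter also does. The element was in 393 of 10446 promoters of tested genes (3.76%), and its share among granule and secretion genes was not counted.
Pcsk1: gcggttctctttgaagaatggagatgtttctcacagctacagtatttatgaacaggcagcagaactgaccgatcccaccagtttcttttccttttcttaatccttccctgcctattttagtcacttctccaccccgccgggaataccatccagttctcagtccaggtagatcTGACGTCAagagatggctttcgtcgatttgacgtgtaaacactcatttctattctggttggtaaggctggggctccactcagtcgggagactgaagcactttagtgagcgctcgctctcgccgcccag
Of 21 beta cell transcription factors 6 rose (28.6%) and 1 fell (4.76%), against 21.9% and 23.3% over all genes. Pax4 rose by 0.93 ± 0.10, Foxa2 by 0.46, Pax6 by 0.25 and Pdx1 by 0.15, Hnf4a fell by 0.17, and Mafa was at 0.11 ± 0.17 (adjusted p = 0.620). Among 16 glucose sensing genes 4 rose (25%) and 4 fell (25%), near the shares over all genes. Pcx, pyruvate carboxylase, had 143, 227, 220 and 275 CPM at 1 h and 92.1, 122, 129 and 140 CPM at 0 h (0.82 ± 0.07, adjusted p = 3.11e-10), without overlap. The islet glucose-6-phosphatase G6pc2 fell by 0.60 and the glucose transporter Slc2a2 by 0.35, while Abcc8, the sulphonylurea receptor, rose by 0.33. Txnip, the thioredoxin inhibitor that glucose induces in beta cells, had 57.1, 121, 121 and 114 CPM at 1 h and 33.4, 52.0, 51.9 and 48.4 CPM at 0 h (1.11 ± 0.19, adjusted p = 3.19e-04). Of the 10 genes of its list 5 rose, Arrdc2 by 0.62 among them, and 4 fell, with Txnrd1 at -0.39.

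Of 28 cholesterol synthesis genes 15 were higher and 2 lower, with a median of 0.28. Cyp51, Fdft1, Sqle and Hmgcs1 rose by 0.56, 0.55, 0.53 and 0.51. Of 33 hypoxia and glycolysis genes 9 rose (27.3%) and 10 fell (30.3%), near the shares over all genes. The members named next were picked after their values were seen, and both directions hold known targets of the hypoxia factor HIF. Those that fell included Egln3, Ankrd37, Slc16a3, Egln1 (-0.70 ± 0.07), Pdk1 (-0.62 ± 0.08), Slc2a1 (-0.51) and Bnip3 (-0.42). Glycolytic enzymes such as Pfkp (0.52), Pfkl (0.43), Gpi1 (0.37), Aldoa (0.34) and Gapdh (0.29) rose. Among 29 NRF2 targets, 11 were lower and 4 higher, the ferritins Ftl1 and Fth1 at -0.51 and -0.41 being 2 of those that fell. Of 89 nuclear genes of oxidative phosphorylation 20 rose and 26 fell, close to the shares over all genes, although Sdha, the catalytic subunit of complex II, had 206, 284, 288 and 268 CPM at 1 h and 140, 144, 140 and 130 CPM at 0 h (0.90 ± 0.06, adjusted p = 4.67e-12). Uqcrc2 rose by 0.76 and Ndufs1 by 0.61.

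Most genes of ribosome assembly rose. Of 46 ribosome biogenesis genes 34 rose and 3 fell (median 0.29), Nop14 at 0.73 ± 0.06, Gnl3 at 0.64 ± 0.06 and nucleolin (Ncl) at 0.52 ± 0.05. Of 82 ribosomal protein genes 10 were higher (12.2%), 22 lower (26.8%) and 50 not called, with a median of -0.05. Over all genes 21.9% were higher and 23.3% lower, so the lower share was near that of all genes. The called members with the smallest p were Rpl39 (-0.44), Rpl41 (-0.42) and Rps29 (-0.40). Spliced host transcripts of small nucleolar RNAs, several of them known to be degraded when translated, included some of the strongest rises. Snhg1 had 86.2, 132, 138 and 104 CPM at 1 h and 43.3, 52.1, 47.3 and 41.1 CPM at 0 h (1.30 ± 0.08, adjusted p = 3.62e-11). Snhg12, Snhg17, Snhg5 and Gas5 rose by 1.53, 1.22, 0.99 and 0.45, and Snhg3, Snhg4, Snhg14 and Snhg20 fell by 0.32 to 0.49, so 7 of 16 rose and 4 fell. Of 49 proteasome genes 23 rose and 4 fell, Psmc5 by 0.56 and Psmc2 by 0.54 among those that rose. Of 26 cytosolic heat shock genes 9 rose, Hspa8 by 0.57 and Hsp90ab1 by 0.43, and 3 fell, the stress-inducible Hspa1a and Hspa1b by 0.54 and 0.53. Hspa1a and Hspa1b are near-identical copies.

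Replication-dependent histone genes rose in 20 of 54 cases, with a median of 0.46. By edgeR 0 fell, also at an unadjusted p under 0.05 and by DESeq2, and 19 of the 20 were also called in replicates 2 to 4. Hist1h1d had 15.3, 26.7, 29.4 and 31.2 CPM at 1 h and 7.59, 7.89, 9.45 and 8.77 CPM at 0 h (1.54 ± 0.12, adjusted p = 3.11e-10). Most histone mRNAs end in a stem-loop without a poly(A) tail and the genes resemble each other, so these libraries count only their polyadenylated forms and single members are uncertain. Of 33 S phase genes, 18 rose and 5 fell, among them the helicase subunit Mcm7 at 0.68 and the licensing factor Cdc6 at 0.52. Of 31 G2/M genes, 16 rose and 5 fell, among them Dlgap5 at 0.75 and Cdc20 at 0.58. The BCL2 and death list mixes genes that promote cell death with genes that restrain it, so its counts give no direction for death. Of its 22 genes 4 rose (18.2%), the pro-death Bbc3 and the pro-survival Mcl1 (0.22) among them. In the same list 9 fell (40.9%), with the death inhibitors Xiap at -0.43 and Bcl2 at -0.33, and Bok at -0.38. Among p53 targets 5 of 21 rose (23.8%) and 8 fell (38.1%), Trp53inp1 by 0.56. Of 18 clock genes 6 rose (33.3%) and 3 fell (16.7%), Tef and Clock by 0.50 and 0.44. Nuclear long noncoding RNAs gave 1 higher of 9 (11.1%), Neat1 at 0.17, and 2 lower (22.2%), with Rian at -0.40. The shares over all genes were 21.9% higher and 23.3% lower.

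**Figure D3:**
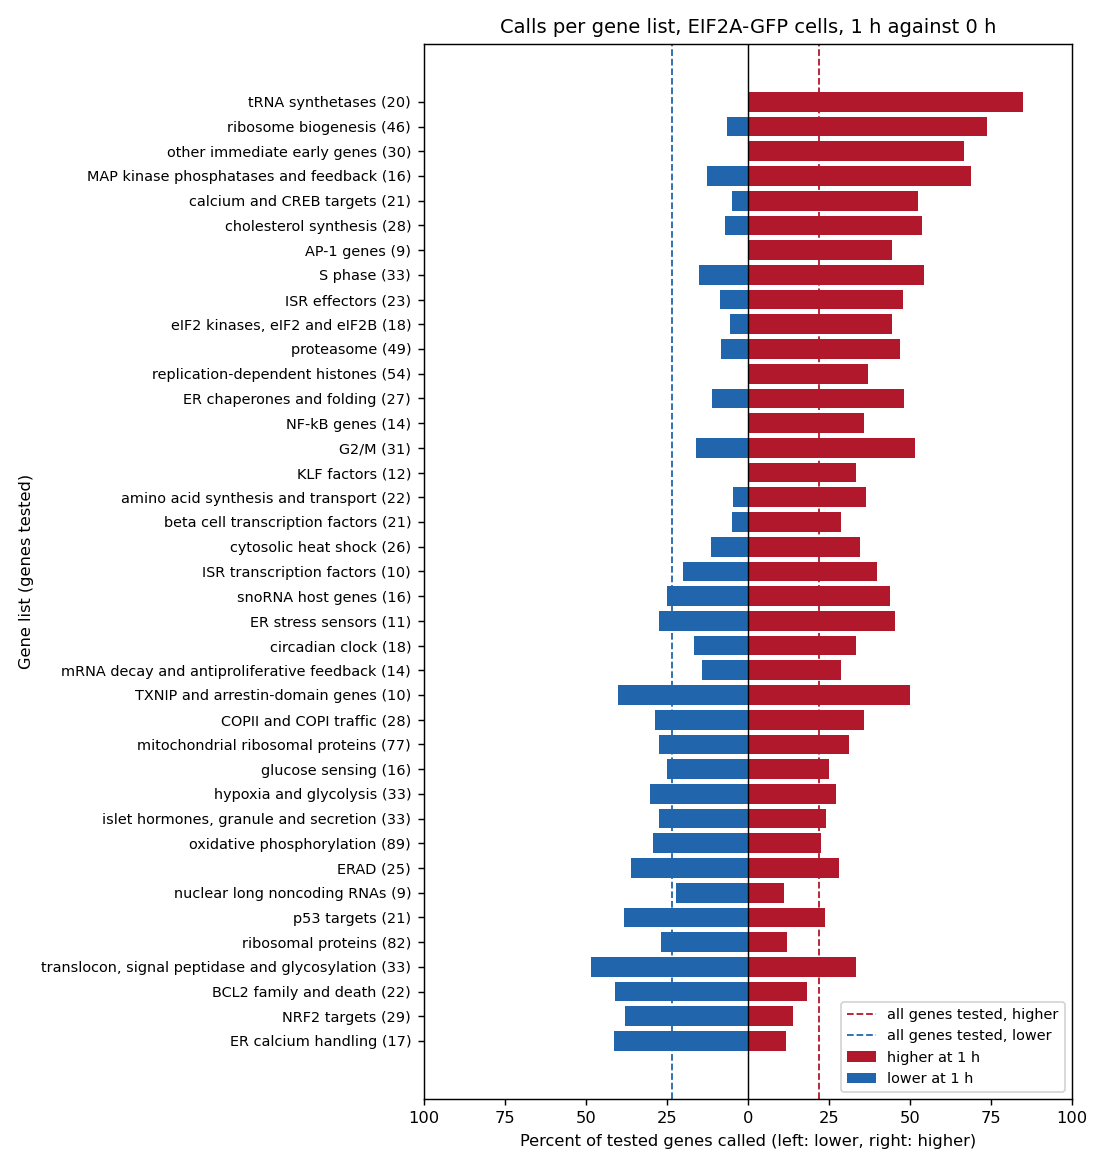
Percent of the tested genes of each list (number in parentheses, y axis) that were lower (blue, left) or higher (red, right) at 1 h in EIF2A cells; dashed lines mark the shares over all 13761 genes, 23.3% lower and 21.9% higher. Of the tRNA synthetases 85.0% were higher, and of the translocon, signal peptidase and glycosylation genes 48.5% were lower.

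The 1 h state was next set against 3 h in the same EIF2A pairs, which tests 3 h over 1 h directly. Between these times 3681 genes were higher (26.7%) and 3566 lower (25.9%) at 3 h. Early genes went both ways between 1 h and 3 h. Nfil3, Klf10, Jun and Junb were higher at 3 h than at 1 h, by 1.27 (7.88e-14), 1.14 (6.96e-05), 0.81 (1.27e-11) and 0.41 (3.12e-05), with adjusted p-values in parentheses. Others were lower. Nr4a1 was at 2.92 ± 0.46 at 1 h and 0.86 ± 0.47 at 3 h relative to 0 h, a change of -2.06 ± 0.43 between them (adjusted p = 0.00143). Sik1 was at 1.52 and 0.12 (adjusted p = 0.00944 for the change), Dusp10 at 0.79 and 0.11 (1.55e-07), and Zfp36 at 0.74 and 0.04 (5.15e-07). Pcx was at 0.82 and 0.21 (1.65e-08), and Rpn2, Pcsk1, Chgb and Foxa2 were also lower at 3 h than at 1 h. ISR genes differed among themselves between these times, and Trib1 and Map1lc3b were lower at 3 h than at 1 h, at -0.47 (1.64e-05) and -0.28 (5.34e-04). Atf3 was at 1.47 and 3.5 (2.19e-07), Chac1 at 1.30 and 2.76 (2.02e-05), Ddit3 at 1.11 and 1.79 (0.00538) and Txnip at 1.11 and 2.32 (5.29e-05). Atf4 mRNA was at 0.16 for 3 h over 1 h and not called (0.235). For Gem and Ier2 the change was not called, with differences of -0.02 and 0.01 (0.881 and 0.917). The insulin genes, not called at 1 h, were lower at 3 h than at 1 h, at -0.93 for Ins1 and -0.95 for Ins2 (4.13e-10 and 5.80e-10).

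**Figure D4:**
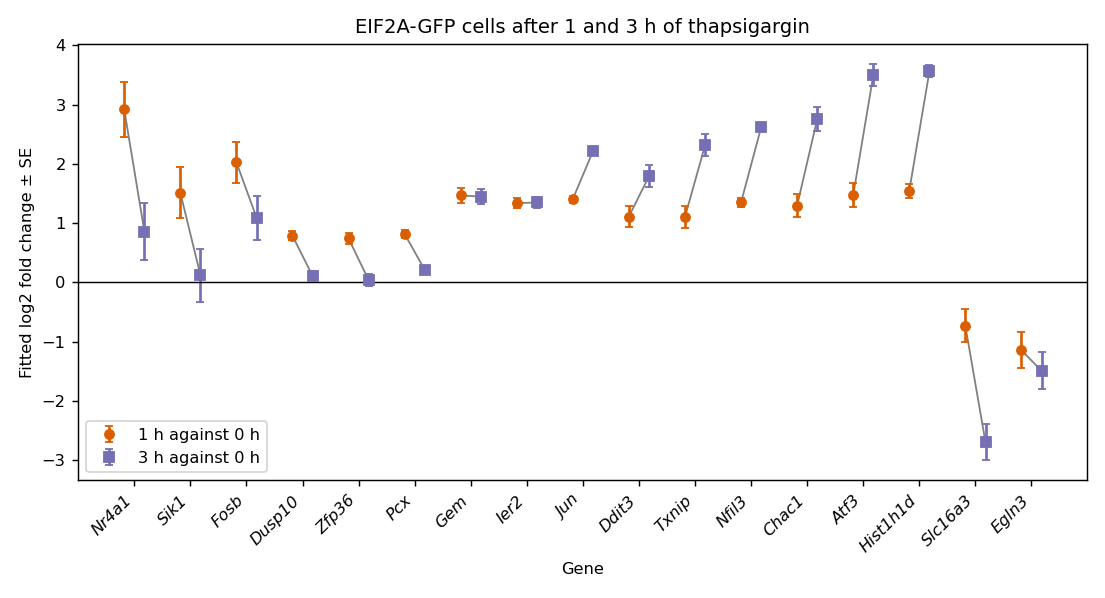
Fitted log2 fold change ± SE (y axis) of 17 genes (x axis) in EIF2A cells at 1 h (circles) and 3 h (squares), each against the same 0 h libraries. Nr4a1 and Sik1 are higher at 1 h than at 3 h, Gem and Ier2 differ by 0.02 and 0.01, and Atf3, Chac1 and Hist1h1d are higher at 3 h.

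Whether the 1 h response of EIF2A cells differed from that of GFP cells depends on replicate 1. Over 4 replicates, the difference (EIF2A response less GFP response) was called for 1 gene of 13761 (0.00727%), Acta2, the smooth muscle gene of 1 library named above. In replicates 2 to 4, it was higher in 534 genes (3.89%) and lower in 512 (3.73%), and in replicate 1 the difference had the opposite sign for 705 of these 1046 genes (67.4%). Among these genes, Egr1, Fos and the others named here were named after their values were seen. In replicates 2 to 4 the response of Egr1 in EIF2A minus that in GFP cells was -1.06 ± 0.08 (adjusted p = 1.23e-10), and that of Fos was -0.93 ± 0.13 (adjusted p = 4.29e-05). Egr1 stood at log2 ratios of -0.48, -0.51 and -0.26 in EIF2A replicates 2 to 4 and at 0.61, 0.59 and 0.68 in GFP replicates 2 to 4. Fos stood at -0.25, -0.06 and 0.17 in the EIF2A pairs and at 0.90, 0.86 and 0.78 in the GFP pairs. In replicate 1, where Eif2a goes against the labels, Fos was at 1.90 in the EIF2A pair and 1.34 in the GFP pair, and Egr1 at 1.61 in the EIF2A pair and 0.57 in the GFP pair. Hist1h1b and Fzd6 were lower by 0.81 and 0.94 in the same difference, and Bloc1s1, Blvra, Scamp3 and Pcyox1l higher by 1.05, 0.70, 0.66 and 0.65. Bloc1s1 was at 0.01 in EIF2A replicates 2 to 4 and fell in GFP cells, by 0.85 over all 4 replicates.

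Gene lists differed in how many members took part in this difference. Over all genes in replicates 2 to 4, 3.89% were higher and 3.73% lower, and the lists given here were picked after their counts were seen. In replicates 2 to 4, 38 of 89 oxidative phosphorylation genes, 19 of 49 proteasome genes and 19 of 82 ribosomal protein genes were higher in the EIF2A response than in the GFP response, and 1, 0 and 0 were lower. Mitochondrial ribosomal protein genes gave 15 of 77 higher and 0 lower, and hypoxia and glycolysis genes 7 of 33 higher and 1 lower. Other lists leaned the other way: 0 of 10 ISR transcription factors were higher and 4 lower, with 1 and 7 of 23 ISR effectors, 1 and 6 of 22 amino acid genes and 1 and 6 of 28 cholesterol genes. For the proteasome the median 1 h response over 4 replicates was 0.11 in EIF2A and 0.01 in GFP cells. For oxidative phosphorylation it was -0.06 in EIF2A and -0.16 in GFP cells. These medians include replicate 1, unlike the counts above. In replicates 2 to 4 the EIF2A medians were 0.177 for the proteasome and -0.00728 for oxidative phosphorylation, and GFP medians were not computed there.

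Replicate 1 also had a smaller spread of ratios as a whole. Over 10844 genes averaging 5 CPM or more, the SD of the log2 ratio of 1 h over 0 h was 0.230 in EIF2A replicate 1 and 0.349, 0.348 and 0.366 in EIF2A replicates 2 to 4. The GFP pairs showed the same order, at 0.230 in replicate 1 and 0.314, 0.315 and 0.306 in the others. Of 7077 genes called in EIF2A replicates 2 to 4, 6011 had the same sign in replicate 1 (84.9%). Among 1011 of them changed by 1.5-fold or more, 918 had it (90.8%), and the median size of the log2 ratio was 0.331 in replicate 1 and 0.739 in replicates 2 to 4. These genes were chosen in replicates 2 to 4, which favours larger values there. All 139 called genes among the 144 named by the rule were also called, in the same direction, in replicates 2 to 4, which the rule required of the 24 highest and lowest.

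**Figure D5:**
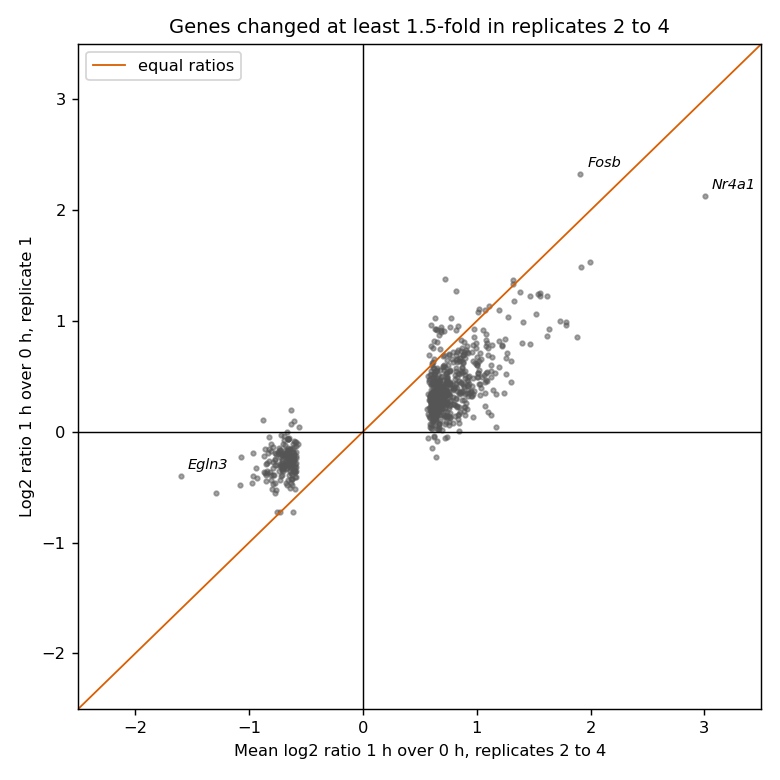
Log2 ratio of 1 h over 0 h in EIF2A replicate 1 (y axis) against the mean of replicates 2 to 4 (x axis), for 735 genes averaging 5 CPM or more that were called and changed by 1.5-fold or more in replicates 2 to 4. Of them 721 share the sign and 701 lie closer to 0 in replicate 1; the line marks equal ratios.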

How the data were processed

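Polyadenylated RNA was sequenced from stranded TruSeq libraries, per the labels' protocols. The tools bcl2fastq and STAR and the build mm10 are named in the submitters' processing notes. Which program, annotation and strand setting made the counts is not stated, so antisense and overlapping genes may share reads. The authors deposited raw counts for 24421 genes, of which 4637 had no count in any library. The 2 lines that name no gene were left out, and reads assigned to more than 1 gene were 0.551 to 0.581% of the total at 1 h and 0.518 to 0.574% at 0 h in EIF2A libraries. Without molecular identifiers, reads are not independent molecules.

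The test was the quasi-likelihood F test of edgeR 4.0.16 (R 4.3.3; TMM scaling, default filter with minimum count 10 and minimum total 15, robust fit) over all 24 libraries, with 8 blocks of construct by replicate number, a 1 h and a 3 h effect per construct and 12 residual degrees of freedom. P-values were adjusted by Benjamini-Hochberg over 13761 genes, and 0.05 was the threshold. CPM use TMM-scaled totals, and ratios within a pair add 0.1 CPM to both values. Same-numbered libraries deviated together from their group means with r of 0.754 to 0.941 over 4 replicates, and 0.0431 to 0.507 over replicates 2 to 4, so the pairing rests mainly on replicate 1 standing apart. Within replicates 2 to 4, replicate 3 had an r of 0.0431 with its own number and up to 0.302 with another number. Libraries of a group differed by 1.86 to 10.2 in chi-square per degree of freedom within replicates 2 to 4 and 74.2 to 144 with replicate 1, where 1 is counting error. P-values measure the spread between these libraries, which may be technical. On simulated counts the fit called 95 of 100 genes changed 2-fold, 84 of 100 changed 1.5-fold and 13 unchanged genes, over 13709 genes. In the data 45.3% of genes were called, most of them changed by under 1.5-fold, and the simulated rates do not cover such changes.

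The 47 gene lists, the members and the tests were chosen with earlier results of these data known. The text names the 12 highest and 12 lowest called genes with at least 5 CPM on average, a symbol that is no Gm or Rik name, one direction in all 4 pairs and the same call without replicate 1, the 3 members of each list with the smallest p, and 18 further genes; other members were named after their values were seen, and a few genes are not reported here. Gene positions came from GENCODE M21 on GRCm38, and promoters from RefSeq on GRCm38.p6, with 108 of the 144 genes named by the rule matched. Figures were drawn with matplotlib. Alternatives were no block, replicate 1 against the rest as the block, other scalings, no filter, fewer libraries, each replicate left out, DESeq2 1.42.0 and removal of a length trend.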

Additional observations from a re-analysis of the deposited data

Results flagged for a closer look

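Among the 4 within-pair log2 ratios of 1 h over 0 h, 17 of the 144 named genes had 1 pair far from the other 3, where chance flags about 1 in 20 groups. In 14 of the 17 that pair was EIF2A replicate 1, the pair in which Eif2a goes against its label. Its ratio was smaller than in the other pairs for Ak4 (-0.553, others -1.32 to -1.26), Nfil3 (1.26, others 1.37 to 1.39), Eif2b3 (0.174, others 0.610 to 0.694), Slc3a2 (0.531, others 1.13 to 1.19) and Erlec1 (0.329, others 0.646 to 0.676). The same held for Pcsk1 (0.413, others 0.930 to 0.995), Txnrd1 (-0.0702, others -0.523 to -0.476), Txnip (0.771, others 1.22 to 1.24), Sdha (0.557, others 0.974 to 1.04) and Fdps (0.129, others 0.473 to 0.508). It also held for Hspa4 (0.241, others 0.348 to 0.362), Psmc2 (0.227, others 0.641 to 0.665) and Mcm7 (0.445, others 0.759 to 0.762). Atf4 was the exception, higher in replicate 1 at 0.613 than in the others at 0.454 to 0.459. Outside replicate 1, Fosb was low in replicate 2 (1.31, others 2.18 to 2.33), Irs2 high in replicate 3 (1.11, others 0.744 to 0.773) and Mbtps2 low in replicate 2 (-0.515, others -0.384 to -0.358). The labels do not say whether replicate 1 came from another cell stock, and what sets these values was not tested.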

How the results depend on the processing

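The counts for EIF2A 1 h against 0 h, genes higher and EIF2A 1 h against 0 h, genes lower, stayed within 1.5 times of 3019 and 3213 under every alternative but 1. With no replicate block they were 902 and 542, and all 1444 of these calls were among the blocked ones in the same direction; 54 of the 144 named genes then missed the threshold, and none reversed. With replicate 1 against the rest as the only block, an alternative added after seeing the data, they were 2721 and 2829. Leaving out 1 replicate gave 2264 to 3385 higher and 2257 to 3693 lower genes. The difference between the EIF2A and GFP responses, called by edgeR for 1 gene (1045 at an unadjusted p under 0.05), gave 0 genes with no replicate block (72 unadjusted), 0 with replicate 1 against the rest as the only block (720 unadjusted), 16 with no filter on low counts, 22 with DESeq2, and 0 to 1046 leaving out 1 replicate, with 1046 without replicate 1 and 0 without replicate 2, 3 or 4 (374 to 484 unadjusted). Leaving out 1 replicate gave -0.0822 to 0.93 for Fos, negative without replicate 1, and -0.0454 to 0.0833 for Ins2, negative without replicate 2 (-0.0202) or 4; the negative values were not called. Other scalings moved the median of all genes by under 0.01. Removing the length trend, also added later, gave 2 higher ISR transcription factors in place of 4, but Ddit3, 1 of the 4, has no length and could not be called there. The cause of these shifts was not tested. Depth limits genes under about 1 CPM, such as Egr2 and Egr3.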

Other observations

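Several gene groups outside the lists above, all collected after their values were seen and therefore given as descriptions, were mitochondrial or nuclear in function. Of 17 mitochondrial tRNA synthetases 15 were higher and 0 lower at 1 h in EIF2A cells, with a median of 0.49. Iars2 had 39.9, 44.8, 46.2 and 42.9 CPM at 1 h and 21, 22.5, 21.3 and 20.4 CPM at 0 h (1.02 ± 0.06, adjusted p = 3.23e-12). Of 33 genes for mitochondrial RNA synthesis and processing 22 were higher and 1 lower, with a median of 0.36. Trmt10c, a subunit of mitochondrial RNase P, had 65.2, 73.9, 73.3 and 62.4 CPM at 1 h and 31.8, 33.2, 27.4 and 26.3 CPM at 0 h (1.20 ± 0.07, adjusted p = 3.17e-13). Elac2, which cuts the 3' end of tRNA precursors, was at 1.14, the tRNA modifying Mto1 at 0.99 and the RNA polymerase Polrmt at 0.77, while the transcription factor Tfb2m was at -0.55. Mitochondrial ribosomal protein genes were split, with 24 of 77 higher (31.2%) and 21 lower (27.3%).

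Genes of propionate and branched-chain amino acid breakdown held some large shifts, with Pcca at 1.06, Mut at 1.03 and Mccc1 at 0.98, and 8 of 19 were higher and 1 lower. Of 328 genes with a numbered Zfp name, mostly zinc finger factors, 180 were higher and 15 lower, with a median of 0.27. Shares over all genes were 21.9% higher and 23.3% lower.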
